A study of Mus musculus with 2 samples.

Results

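The genes of oxidative phosphorylation were followed in single epithelial cells of the mouse oviduct, the tube that carries the egg from ovary to uterus. They were chosen by symbol: nuclear genes beginning with Nduf, Cox4 to Cox8, Uqcr or Atp5, the 4 genes Sdha to Sdhd, and genes of the mitochondrial genome, whose symbols begin with mt-. The adult table lists 105 such genes among 27998, namely 92 nuclear genes and 13 mitochondrial protein genes. The table of postnatal day 4 (P4) lists 136 among 53573, namely 99 nuclear genes, 7 of them pseudogenes, and 37 mitochondrial genes, of which 2 are ribosomal RNAs and 22 are transfer RNAs. In all, 137 genes are in either table and 104 in both. The nuclear genes comprise 82 subunits, of which 36 belong to complex I, 4 to complex II, 8 to complex III, 19 to complex IV and 15 to complex V. The rule also takes the complex I assembly factors named Ndufaf (7 in the adult table) and Cox7a2l, Atp5s and Atp5sl. Nuclear and mitochondrial genes were kept apart throughout.

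Both groups are C57BL/6 mice with no transgene or treatment named. The adult group was at estrus and the other at P4, with 1 library each, and the labels do not give the number of mice pooled. Cells were dissociated with enzymes and sorted with antibodies to Epcam, an epithelial surface protein, and to CD45, the leukocyte protein encoded by Ptprc. The study asked how epithelial cells of the oviduct differ among themselves. Levels are counts of unique molecular identifiers (UMI, 1 per captured RNA molecule) pooled over the cells of a cluster and given per 10000 UMI of that cluster. Intervals are exact, at 95%, and cover counting error only. With 1 library per age there is no replicate check, so no p-value is given, and "higher" or "lower" of a gene means at least 1.5-fold with a pseudocount of 0.1 per 10000.

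The respiratory chain sits in the inner mitochondrial membrane. Complex I (NADH dehydrogenase) and complex II (succinate dehydrogenase) pass electrons to ubiquinone, complex III hands them to cytochrome c, and complex IV gives them to oxygen. Complexes I, III and IV pump protons, and complex V (ATP synthase) uses the proton gradient to make ATP. Mitochondrial DNA encodes some subunits of complexes I, III, IV and V, while all of complex II and most other subunits are made from nuclear genes and imported. In the oviduct, multiciliated cells move the egg with beating cilia driven by ATP, and secretory cells release the fluid around it.

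The adult library held 406 cells with a median of 3232 UMI (502 to 16207), and the P4 library 263 cells with a median of 7585 UMI (1331 to 23372). No barcode was shared between the ages. Of the adult barcodes, 401 occur under both column prefixes with nearly the same counts, and each was used once. The authors' adult clusters 1 and 3 carried 187 and 135 UMI per 10000 of 15 multiciliated markers, against 3.20 in cluster 0, and are called multiciliated-like. Genes other than those markers led cluster 3, among them Wfdc12, Ly6c1, Ly6a and Krt17. Clusters 0 and 4, with 107 and 378 UMI per 10000 of 9 secretory markers, are called secretory-like. Adult cluster 5 and the P4 clusters are given by number. Epithelial markers were detected in every cluster, and Ptprc was at 0 in all of them. Other genes of the list of 6 immune markers were counted in every cluster. The list summed to between 0.164 (adult cluster 4) and 1.95 (adult cluster 3) UMI per 10000, and to 55.4 in the highest cell of P4 cluster 0. Doublets were not called.

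All 5 complexes were read out in every cluster. Summed over its subunits, nuclear complex I stood at 109, 140, 106, 130 and 110 UMI per 10000 in adult clusters 0, 4, 5, 1 and 3. In P4 clusters 0 and 1 it stood at 75.4 and 79.0, below every adult cluster. Nuclear complex IV, the terminal oxidase, stood at 109, 143, 116, 118 and 82.7 in the same adult order, and at 77.0 and 79.1 in the P4 clusters. Complex II, which has no mitochondrially encoded subunit, stayed between 4.16 and 5.24 in all 7 clusters. Over all nuclear members cluster 4 was highest at 447 and cluster 3 lowest of the adult clusters at 297, while P4 clusters 0 and 1 stood at 264 and 273. The 13 mitochondrial protein genes summed to 607 in adult cluster 5, 494 in cluster 1, 472 in cluster 0, 415 in cluster 4 and 308 in cluster 3, against 85.3 and 89.6 in the P4 clusters. Their order across the adult clusters is not that of the nuclear members. Each level here is per 10000 UMI of all genes that the table of that age lists. Genes in both tables hold 1839488 of the 2123202 P4 UMI and 1376605 of the 1401641 adult UMI. Small gaps between P4 and adult clusters, such as that of complex IV beside cluster 3, therefore cannot be read as an order.

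**Figure D1:**
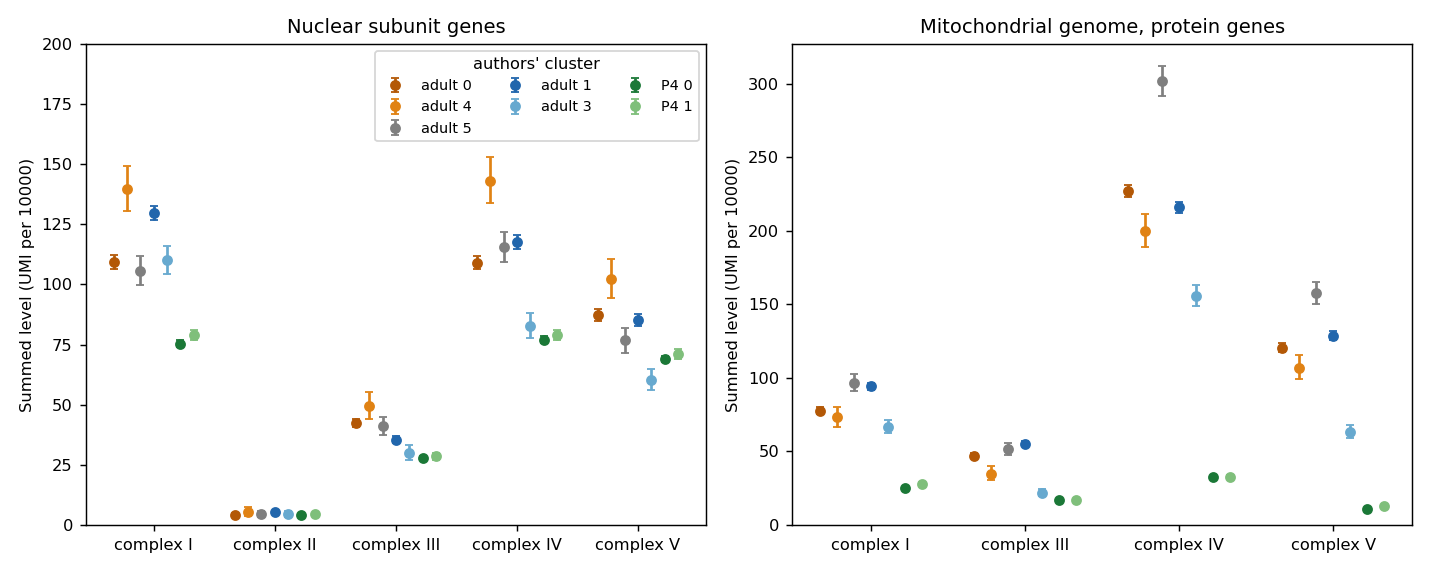
Summed levels, in UMI per 10000, of nuclear subunit genes (left) and mitochondrial protein genes (right) of each respiratory complex in the authors' clusters; bars are exact 95% Poisson intervals. Levels are per 10000 UMI of all genes that the table of each age lists. Nuclear complex I is lowest in the P4 clusters, and mitochondrial complex IV spans 32.4 at P4 to 302 in adult cluster 5.

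The most counted nuclear genes were much the same at both ages. Cox4i1, Cox6c and Cox8a led complex IV, with pooled levels of 20.6, 15.4 and 14.4 in the adult and 13.5, 10.8 and 10.1 at P4. Atp5e, the epsilon subunit of the ATP synthase head, led complex V (10.3 and 7.99). Ndufa7 led complex I in the adult (9.95, with 4.97 at P4), Ndufa2 did so at P4 (5.27, with 6.14 in the adult), and Uqcr11 and Uqcrh led complex III. Sdhb, the iron-sulfur subunit, led complex II at 1.69 and 1.57. These are counts of RNA 3′ ends that are not divided by length, so an order between genes also carries how well each end is captured.

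Of the subunits with tissue isoforms, the widely expressed forms carried nearly all counts. Cox4i1 had 2889 UMI in the adult and 2857 at P4, while Cox4i2 had 3 and 3. Cox6a1 had 1221 and 1030 UMI, and the muscle form Cox6a2 was at 0 in both libraries. Cox7a2 had 950 and 1066 UMI against 11 and 6 of the muscle form Cox7a1. Cox8a had 2013 and 2147 UMI against 6 and 0 of Cox8b, and Cox8c was at 0, as was Cox7b2. Ndufa4 had 1192 and 1022 UMI against 11 and 7 of Ndufa4l2. Cox6b1 had 1468 and 1548 UMI, and Cox6b2, known as a testis form, was detected at a low level with 42 and 101. Of the 3 genes for the same ring subunit of ATP synthase, Atp5g1 had 777 and 1049 UMI, Atp5g2 had 954 and 740, and Atp5g3 had 378 and 521. A gene with 0 counts allows up to 0.0214 UMI per 10000 in the adult library and 0.0141 at P4.

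Adult multiciliated-like cells (220) and secretory-like cells (161) had nearly the same summed level of nuclear members, 366 and 371 UMI per 10000, with a ratio of 0.986 (0.968 to 1.004). Mitochondrial protein genes stood at 462 and 466, with a ratio of 0.992 (0.976 to 1.01). Within this even total the complexes differed, with all genes counted in the 10000. Complex I was higher in multiciliated-like cells (126 against 113, ratio 1.12, 1.09 to 1.16), complex III lower (34.5 against 43.1, ratio 0.801, 0.756 to 0.846) and complex V lower (80.9 against 88.9, ratio 0.910, 0.876 to 0.945). Complex IV was within counting error (ratio 0.991, 0.959 to 1.02), as was the small complex II (ratio 1.15, 0.976 to 1.36).

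Of 92 nuclear members, 76 were measured in this comparison, which means detected in at least 10% of the cells on either side. In multiciliated-like cells 7 were at least 1.5-fold higher, against 36.9% of the 5184 genes measured, and 5 were lower, against 19% of those genes. Their median log2 fold was 0.04, beside 0.25 over all measured genes. At 2-fold, 4 were higher and 1 lower, against 24.2% and 11.1%. Both counts of members are smaller shares than the background.

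The 7 higher genes lay in complexes I and II. Ndufaf3, an assembly factor of complex I, stood at 2.17 UMI per 10000 in multiciliated-like and 0.470 in secretory-like cells (155 and 27 UMI), a ratio of 4.6 (3.05 to 7.21). By cluster it was 2.08 and 2.60 in clusters 1 and 3, and 0.487 and 0.327 in clusters 0 and 4, with no overlap between the ranges of the classes. The cluster 4 value rests on few UMI, in 6.45% of its 31 cells. With each cell thinned to 1000 UMI, Ndufaf3 was seen in 21.3% and 24.1% of cells of clusters 1 and 3. It was seen in 3.57% and 10.5% of clusters 0 and 4, and in 19.0% of cluster 5. Ndufab1, which is both a complex I subunit and the mitochondrial acyl carrier protein, stood at 5.23 against 1.85 (ratio 2.83, 2.28 to 3.55). Ndufa11, a subunit of the membrane arm of complex I, stood at 9.60 against 3.57 (ratio 2.69, 2.3 to 3.16). Its values were 9.87 and 8.28 in clusters 1 and 3 and 3.45 and 4.58 in clusters 0 and 4, again without overlap. After each cell was thinned to 1000 UMI, Ndufa11 was seen in 63.8% of 141 cells of cluster 1 and 25.9% of 112 cells of cluster 0, and before thinning in 82.0% and 65.4%. In thinned cells the classes did overlap in this share: cluster 3 stood at 65.5% of 29 cells, secretory-like cluster 4 at 57.9% of 19 and cluster 5 at 52.4% of 21.

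Ndufs7, the core subunit with the last iron-sulfur cluster before ubiquinone, stood at 3.23 against 1.43 (ratio 2.26, 1.75 to 2.94). It did not follow the classes cleanly, since secretory-like cluster 4 stood at 3.27, close to cluster 1 at 3.33, and cluster 0 at 1.21. The other 3 higher genes were the complex I subunits Ndufb7 (4.12 against 2.40) and Ndufb10 (3.70 against 2.18) and the complex II subunit Sdhb (2.05 against 1.32). So 5 of the 35 measured nuclear subunits of complex I were higher and 1 lower, against 36.9% and 19% of all measured genes. Both are smaller shares than the background. The median log2 fold of these subunits was 0.15, beside 0.25 over all measured genes.

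The 5 lower genes were spread over the chain. Cox7a2l, a factor known for joining complexes III and IV into supercomplexes, of which C57BL/6 mice are known to carry a shortened protein, stood at 3.49 UMI per 10000 in multiciliated-like cells and 7.94 in secretory-like cells (ratio 0.440, 0.375 to 0.514). It was lowest in cluster 1 (3.02) and stood at 5.76 in cluster 3, next to 5.56 in secretory-like cluster 4, and at 8.23 in cluster 0. The small complex III subunits Uqcr10 (4.0 against 7.44, ratio 0.537, 0.461 to 0.625) and Uqcrh (6.16 against 10.5, ratio 0.585, 0.516 to 0.662) were both lower. Atp5g1 stood at 4.15 against 7.27 (ratio 0.571, 0.491 to 0.665), while its sister genes Atp5g2 and Atp5g3 were neither higher nor lower. Ndufa1, an X-linked complex I subunit, stood at 2.95 against 5.16 (ratio 0.572, 0.477 to 0.685). Of the mitochondrial genes, mt-Nd2 alone passed the fold, at 8.50 against 4.95 (ratio 1.72, 1.49 to 1.98).

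**Figure D2:**
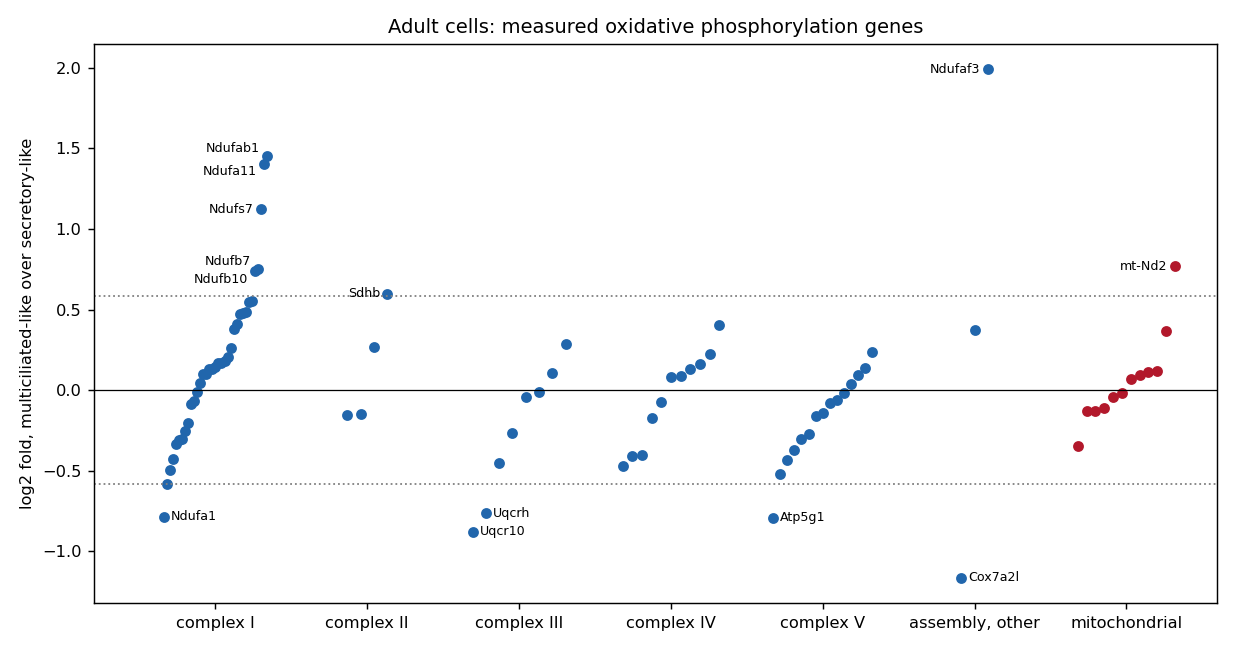
Log2 fold of every measured member in adult multiciliated-like over secretory-like cells, each dot 1 gene, grouped by complex, with mitochondrial genes in red; dotted lines mark 1.5-fold. Most genes lie between the lines, Ndufaf3 (1.99), Ndufab1 (1.45) and Ndufa11 (1.40) stand highest and Cox7a2l (-1.16) lowest.

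The evenness of the nuclear total depends on what it is set against. Ribosomal protein genes took 948 UMI per 10000 of multiciliated-like and 2307 of secretory-like cells. With mitochondrial and ribosomal protein genes taken out of the total, the log2 ratio of the nuclear sum moved from -0.02 to -0.27. Then 4 members were higher and 15 lower, and the median of all measured genes moved from 0.25 to 0.04. A change of total applies to every complex alike. The log2 ratio of complex I, 0.17 with all genes in the total, is smaller than that move. The direction of complex I therefore depends on the total too. Dissociation stress genes stood at 84.9 and 136 UMI per 10000, and their part in the result was not tested.

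Genes of the same pathways outside the symbol rule were read from fixed lists. Of 18 genes of the citric acid cycle and pyruvate entry, 15 were measured, 5 were higher and 2 lower in multiciliated-like cells. Over all measured genes these shares were 36.9% and 19%, which also stand beside the other lists here, and the citric acid cycle counts are near or below them. Idh3a, a subunit of the NAD-linked isocitrate dehydrogenase, stood at 1.47 against 0.261, Suclg1 at 2.26 against 0.871, and the pyruvate carrier gene Mpc1 at 2.85 against 1.27. Ogdh was also higher, Suclg2, the GTP-forming partner of Suclg1, was lower at 0.377 against 0.819, and so was Pdha1. The interval of the ratio of Ogdh, 0.999 to 3.30, reaches 1. Of 32 assembly factors outside the rule 16 were measured, with Sco2 (1.17 against 0.174), which delivers copper to complex IV, Coa6 and Nubpl higher and Cox20, Surf1 and Uqcc3 lower. Of the import and inner membrane list, 20 of 22 genes were measured, with 3 higher and 2 lower. Chchd10, a small protein of the intermembrane space, stood at 45.8 against 3.75 UMI per 10000, a ratio of 12.2 (10.6 to 14.1), which was larger than that of any member. Of 14 carriers and electron transfer genes 12 were measured, with Vdac3 and the ATP synthase inhibitor Atpif1 (15.5 against 9.01) higher and none lower. Of the 15 regulators of mitochondrial gene expression only 2 were measured, and Mterf4 was higher.

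Promoters of the genes that stood apart were read from RefSeq (GRCm38.p6, from 250 bases before to 50 after the start) to see whether they share letters. Of 93 nuclear members other than pseudogenes, 74 matched the table, with 79 promoters. Both strands were searched. The core motif of NRF1, a known activator of respiratory chain genes, was found in 25.3% of member promoters and in 4.6% of 32851 promoters in all. AAGATGGCG (YY1) was in 10.1% against 1.40%, CCGGAAGT (ETS factors) in 6.33% against 3.89%, and CAAGGTCA (ERR) in 5.06% against 1.56%. GTTGCCAT, from the motif of the ciliary RFX factors, was in none of the 79 and in 1.35% of all promoters. A match is only a run of letters. Shown are Ndufaf3 and Ndufa11, higher in adult multiciliated-like cells and in the P4 cells with multiciliated markers described further on, Ndufs7, higher in the adult only, and Ndufs5, higher in those P4 cells only, each on the gene's strand, 5′ to 3′, with the letters found in capitals.
Ndufaf3, chr9:108567387-108567686, minus strand, no match: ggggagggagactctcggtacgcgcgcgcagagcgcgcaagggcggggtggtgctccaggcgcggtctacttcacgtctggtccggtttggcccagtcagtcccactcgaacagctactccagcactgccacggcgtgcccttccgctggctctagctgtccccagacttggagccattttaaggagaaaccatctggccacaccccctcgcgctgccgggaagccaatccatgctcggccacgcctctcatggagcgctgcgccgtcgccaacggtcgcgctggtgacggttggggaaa
Ndufa11, chr17:56717512-56717811, plus strand, NRF1 core: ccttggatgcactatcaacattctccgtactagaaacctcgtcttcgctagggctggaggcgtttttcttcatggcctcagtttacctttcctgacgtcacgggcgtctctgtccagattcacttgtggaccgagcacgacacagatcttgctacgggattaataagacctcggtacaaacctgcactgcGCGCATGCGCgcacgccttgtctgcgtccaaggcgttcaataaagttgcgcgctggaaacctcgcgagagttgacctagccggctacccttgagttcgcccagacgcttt
Ndufs7, chr10:80249199-80249498, plus strand, YY1: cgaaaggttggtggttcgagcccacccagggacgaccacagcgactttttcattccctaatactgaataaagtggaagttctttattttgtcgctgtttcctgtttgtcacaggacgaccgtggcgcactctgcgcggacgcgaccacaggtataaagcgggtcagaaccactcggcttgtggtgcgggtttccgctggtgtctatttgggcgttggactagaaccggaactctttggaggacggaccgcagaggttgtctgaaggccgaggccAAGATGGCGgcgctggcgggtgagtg
Ndufs5, chr4:123718137-123718436, minus strand, ERR (reverse strand) and NRF1 core: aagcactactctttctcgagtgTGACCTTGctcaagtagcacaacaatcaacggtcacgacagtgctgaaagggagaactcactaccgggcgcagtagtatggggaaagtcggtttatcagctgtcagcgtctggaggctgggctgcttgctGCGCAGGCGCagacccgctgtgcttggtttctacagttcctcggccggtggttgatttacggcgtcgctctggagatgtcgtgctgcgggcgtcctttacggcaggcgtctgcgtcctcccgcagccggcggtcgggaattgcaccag
The genes that stood apart do not share 1 of the 5 motifs: of the 4 shown, 2 hold the NRF1 core and Ndufaf3 holds none of them. The GENCODE gene models (GRCm38) of Ndufaf3 (chr9:108565537-108567434), Ndufa11 (chr17:56717767-56722141), Ndufs7 (chr10:80249121-80256794) and Cox7a2l (chr17:83501918-83517330) are protein coding and share no exon bases on their strand with another gene.

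Between the multiciliated-like clusters, cluster 3 (37 cells) was lower than cluster 1 (183 cells) in both genomes. Nuclear members stood at 297 and 380 UMI per 10000 (ratio 0.782, 0.755 to 0.810) and mitochondrial genes at 308 and 494 (ratio 0.623, 0.602 to 0.644). Of 80 measured nuclear members 14 were lower and 2 higher, against 20.4% and 22.4% of the 5483 genes measured. A log2 fold under 0 was seen in 63 of the 80, beside 2672 of the 5483 genes. At 2-fold, 1 was higher and 3 lower, against 11.7% and 9.06% of genes. Complexes IV and V were lower (ratios 0.703 and 0.710), with all 11 and all 15 measured genes under 0, and complexes I and III less so (0.849 and 0.848). Cox4i1, the regulatory subunit of complex IV, stood at 11.8 against 22.9, and Atp5b, the catalytic beta subunit of ATP synthase, at 3.17 against 6.16. Ndufaf2, Ndufa10, Atp5c1, Ndufc1, Atp5h and Cox5b were lower by 1.67-fold to 3.08-fold. Ndufaf2, the furthest, stood at 0.162 against 0.709 and rests on few UMI in cluster 3. Cox7a2l went the other way (5.76 against 3.02, ratio 1.91, 1.43 to 2.52). Of the mitochondrial genes, mt-Cytb stood at 21.9 against 55.2, mt-Nd4 at 15.9 against 32.8, mt-Atp6 at 62.5 against 128 and mt-Co3 at 47.6 against 85.5, while mt-Nd1 (40.6 against 46.9) and mt-Co1 (90.7 against 106) were nearer each other. Of the carrier list, 6 of 12 measured genes were lower, among them the ADP/ATP carrier genes Slc25a4 and Slc25a5 and the phosphate carrier gene Slc25a3, and none was higher. Dissociation stress genes stood at 194 UMI per 10000 in cluster 3 and 62.2 in cluster 1, and their part was not tested.

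Between the secretory-like clusters, cluster 4 (31 cells) was higher than cluster 0 (130 cells) in nuclear members, 447 against 362 (ratio 1.23, 1.18 to 1.28), and lower in mitochondrial genes, 415 against 472 (ratio 0.880, 0.844 to 0.917). Of 76 measured nuclear members 14 were higher and 3 lower, against 18.3% and 33.1% of 4474 genes, and the members' median log2 fold was 0.24 beside -0.16 over all measured genes. The share of members higher was close to the background, and the share lower was below it. At 2-fold, 3 were higher, against 8.99%, and 2 lower, against 20.8%. Complex I genes made up 10 of the 14, with Ndufs7 (3.27 against 1.21), Ndufa1 (9.0 against 4.70), Ndufv3, Ndufa12 and Ndufc2 ahead, and the complex IV genes Ndufa4, Cox6c and Cox7a2 followed at 1.52-fold to 1.54-fold. Uqcrfs1, the Rieske iron-sulfur subunit of complex III, was lower (0.655 against 1.89), as were Ndufa5 and Ndufb7. Cluster 4 cells were shallow, with a median of 1185 UMI against 4108 in cluster 0. Dissociation stress genes stood at 43.7 against 147 UMI per 10000 and ribosomal protein genes at 1713 against 2378. The part of these differences in the result was not tested.

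Adult cluster 5 (25 cells) stood beside cluster 0 in nuclear members, at 356 and 362 (ratio 0.982, 0.949 to 1.02), and above it in mitochondrial genes, at 607 and 472 (ratio 1.29, 1.25 to 1.32). Of 80 measured nuclear members 5 were higher and 3 lower, against 28.2% and 16.7% of 5835 genes. At 2-fold, 2 were higher, against 14.8%, and none lower, against 8.41%. Ndufs7 (2.41 against 1.21) and Ndufv3 (5.09 against 2.79) were higher. Ndufaf4, Ndufaf3 and Atp5s, chosen here after their values were seen, were higher on 6, 9 and 4 UMI in cluster 5, and Uqcrq (2.94 against 5.03), Sdhc and Ndufa3 lower. Smooth muscle markers stood at 75.8 UMI per 10000 in cluster 5 and 4.06 in cluster 0, with all 7 markers detected in both. Without the cells that carried 10 or more UMI of those markers, 18 cells of cluster 5 remained. Then 17 nuclear members were lower, where 28.2% of all measured genes were lower, and the log2 ratio of the nuclear sum was -0.11.

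**Figure D3:**
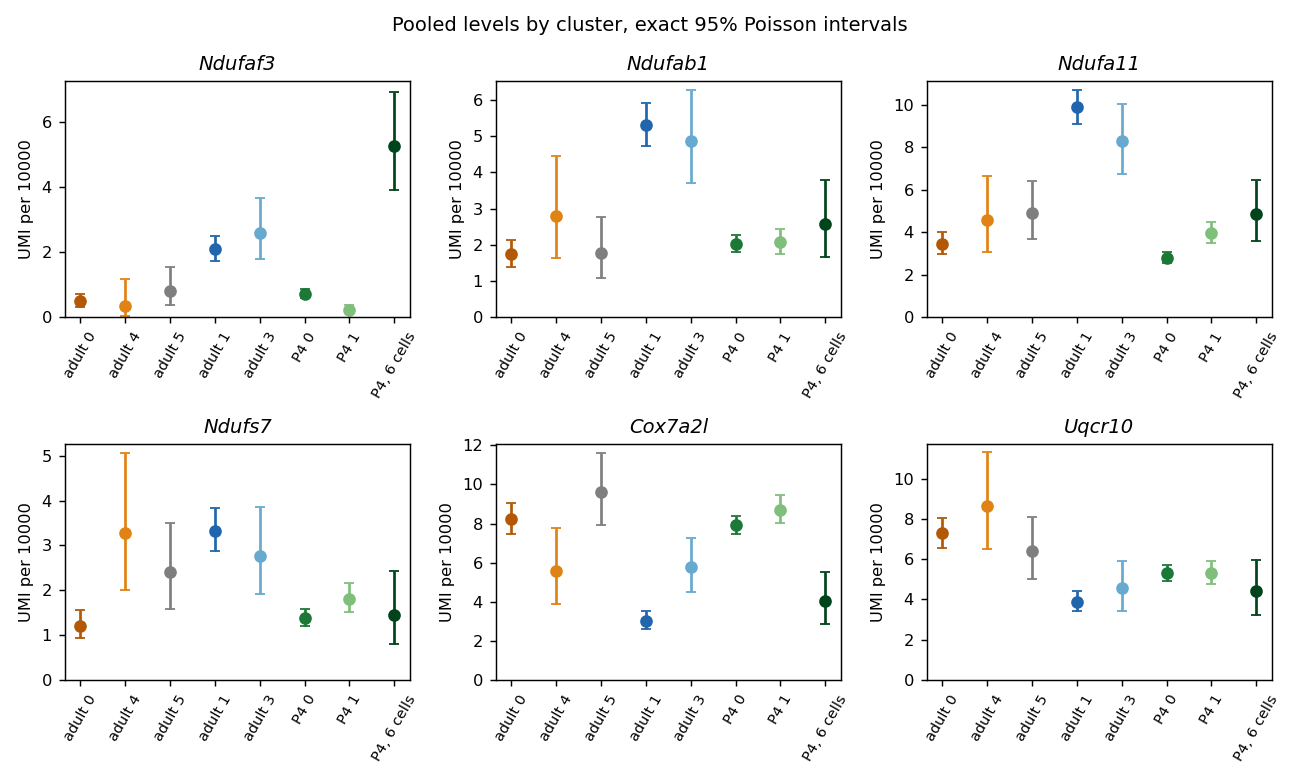
Pooled levels (UMI per 10000, exact 95% Poisson intervals) of 6 members in the 5 adult clusters, the 2 P4 clusters and the 6 P4 cells with the most multiciliated marker UMI. Ndufaf3 is highest in those 6 cells (5.26) and in adult clusters 3 and 1 (2.60 and 2.08), and Cox7a2l is lowest in adult cluster 1 (3.02) and in the 6 cells (4.02).

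At P4 the clusters hardly differed in these genes. Nuclear members stood at 273 UMI per 10000 in cluster 1 (95 cells) and 264 in cluster 0 (168 cells), a ratio of 1.03 (1.01 to 1.05), and mitochondrial genes at 89.6 and 85.3, a ratio of 1.05 (1.02 to 1.08). Of 82 measured nuclear members none was higher and 2 were lower in cluster 1, against 6.93% and 7.19% of 8721 genes. At 2-fold, none was higher and 1 lower, against 1.41% and 1.38%. The 2 genes lower at 1.5-fold were the assembly factors Ndufaf3 (0.211 against 0.719) and Ndufaf7 (0.106 against 0.226). Ndufaf7 rests on few UMI in cluster 1. The 6 P4 cells with the most multiciliated marker UMI are all in cluster 0. Without the cells past that marker limit the log2 fold of Ndufaf3 went from -1.40 to -0.67.

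Those 6 cells carried 50.8 to 169 UMI of multiciliated markers per 10000, over a limit of 30, and the next cell carried 29.6, and 6 cells lay between 20 and 40, all below the limit. Their median depth was 18606 UMI, against 7458 in the other 257 cells. Nuclear members stood at 307 UMI per 10000 in them and 265 in the others (ratio 1.16, 1.12 to 1.2), and mitochondrial genes at 78.1 and 87.1 (ratio 0.898, 0.833 to 0.965). Without the 5% of P4 cells with the most UMI, which leaves 2 of the 6, the log2 ratio of the mitochondrial sum turned from -0.16 to 0.35. Of 85 measured nuclear members 20 were higher and 6 lower, against 36.3% and 18.3% of 12092 genes. At 2-fold, 7 were higher and 2 lower, against 18% and 11.2%. With cells thinned to 1000 UMI 23 were lower, where 19.0% of all measured genes were lower. With 6 cells, a UMI in 1 of them is enough for a gene to count as measured, and the background moves with that filter: it was 20.6% higher with no filter, with 20 members higher. With a pseudocount of 0.5 it was 12.3%, with 13 members higher. Whether the members lie below or above the background therefore depends on these settings. Complexes I and IV stood at ratios of 1.21 and 1.2, and complexes III and V at 1.08 and 1.07. Ribosomal protein genes stood at 1711 against 2475 and dissociation stress genes at 43.1 against 86.5 UMI per 10000, and their part was not tested.

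Ndufaf3, whose promoter is printed above, was again the furthest member, at 5.26 against 0.336 UMI per 10000 (51 and 68 UMI, ratio 15.7, 10.7 to 22.9). In falling order of marker level the 6 cells had 0.987, 5.90, 7.01, 8.13, 0.919 and 4.71 UMI of Ndufaf3 per 10000, and the median of the other cells was 0 and their highest value 5.15, from a cell with 2 UMI of it. So 4 of the 6 cells were high and the 2 least deep cells, with 1 UMI of Ndufaf3 each, were not. Those 2 are the cells left when the 5% of cells with the most UMI are removed, and the log2 fold then goes from 3.62 to 1.34. Ndufs5, a complex I subunit of the intermembrane side, stood at 4.93, 5.90, 4.31, 2.03, 0.919 and 7.85 in the same cells, with 5 of the 6 above the other cells' median of 1.41, and pooled at 4.54 against 1.64 (ratio 2.77, 1.97 to 3.80). Ndufaf8, Ndufs6, Ndufc1, Cox5b, Ndufb9 and Ndufb7 followed, at 1.64-fold to 2.86-fold. Cox7a2l was lower, at 4.02 against 8.38 (ratio 0.480, 0.340 to 0.659). All 6 cells lay below the other cells' median of 7.49, at 6.91, 2.68, 2.70, 4.57, 3.67 and 4.71. With each cell thinned to 1000 UMI its log2 fold turned from -1.04 to 0.042, and the cause of that was not tested. Ndufa5, Ndufaf4, Atp5d, Ndufa6 and Ndufv3 were also lower. Ndufaf4, at 0.103 against 0.242, rests on few UMI in the 6 cells.

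The adult comparison shares no cells with this one. Ndufaf3, Ndufb7 (3.81 against 2.28 at P4) and Ndufa11 (4.84 against 3.07 at P4) were higher in cells with multiciliated markers at both ages. Cox7a2l was lower at both ages, at P4 only without thinning. The log2 fold of Ndufa11 at P4, 0.64, fell to 0.50, under 1.5-fold, in another setting. Uqcr10, Uqcrh, Atp5g1 and Ndufa1, lower in the adult, were not lower at P4. Of all measured genes 36.3% were higher at P4 and 36.9% in the adult comparison. How many of all genes were higher in both was not counted, so this overlap cannot be read as a result about the members. Ndufab1 stood at 2.58 against 2.02 (ratio 1.28, 0.816 to 1.91) and Ndufs7 at 1.44 against 1.52 (ratio 0.949, 0.513 to 1.62) at P4, so neither passed the fold there. In other settings the log2 fold at P4 ran from -0.735 to 0.34 for Ndufab1 and from -0.21 to 1.62 for Ndufs7. Of the citric acid cycle list 9 of 18 measured genes were higher and 2 lower in the P4 cells, beside 36.3% and 18.3% of all measured genes, including Idh3a, Suclg1, Mpc1 and Ogdh as in the adult, and Suclg2 lower as in the adult. These rest on 2 to 14 UMI each in the 6 cells, and of these 5 named genes only Ogdh (ratio 2.65, 1.16 to 5.31) and Suclg2 (ratio 0.232, 0.0279 to 0.851) have an interval that leaves out 1. The difference between the ages in these folds was not tested.

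By their quartiles, single cells varied more widely in mitochondrial RNA in the adult than at P4. In adult cluster 1 the 13 mitochondrial genes took from 14.5 to 999 UMI per 10000 of a cell, with quartiles at 192, 440 and 573, and in cluster 0 from 8.42 to 991, with quartiles at 113, 400 and 556. In P4 cluster 0 the quartiles were 66.2, 84.4 and 105, with single cells from 2.92 to 624. Cells of P4 cluster 1 ran from 3.13 to 333. No adult cell exceeded 9.99% of UMI from mitochondrial genes, and no P4 cell 6.39%. Nuclear members had quartiles of 310, 373 and 483 in adult cluster 0 and of 243, 266 and 285 in P4 cluster 0. Under 100 UMI per 10000 of mitochondrial genes, a limit set after the values were seen, were 29 of 130 cells of cluster 0 and 34 of 183 of cluster 1. Those cells were shallow, with a median of 1229 UMI against 4744 in the other cells of cluster 0, and 906.5 against 3525 in cluster 1. Their nuclear members had medians of 546 against 346 and 568 against 376 UMI per 10000.

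**Figure D4:**
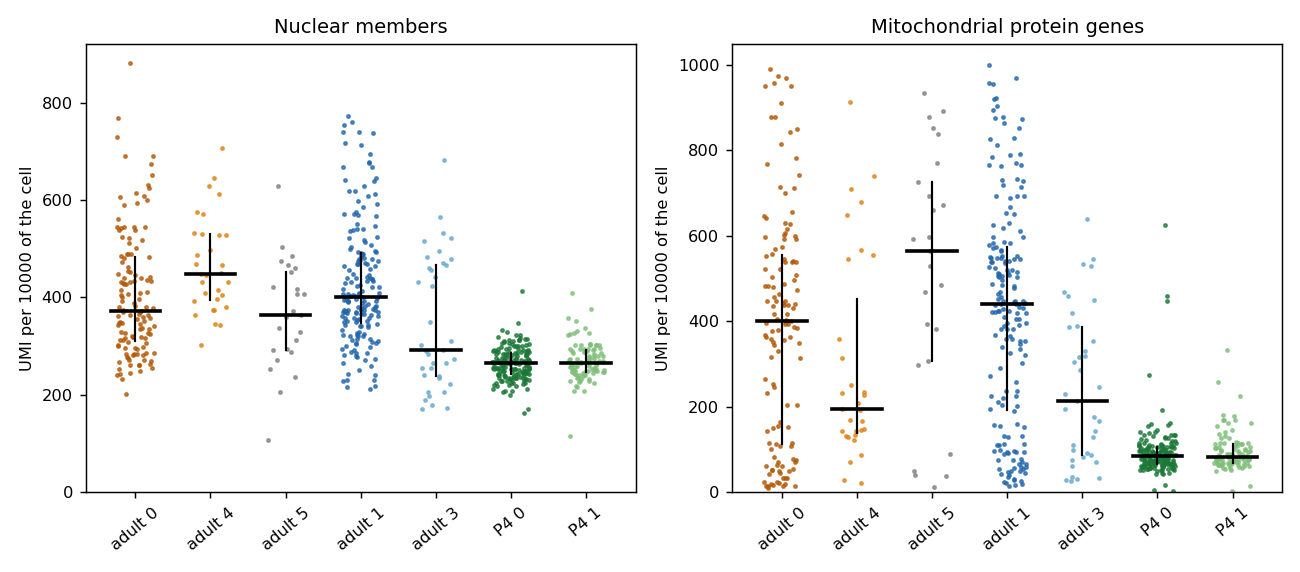
Each dot is 1 cell: nuclear members (left) and mitochondrial protein genes (right) in UMI per 10000 of that cell, by cluster; horizontal bars are medians and vertical bars span the quartiles. Adult cells spread from near 0 to almost 1000 in mitochondrial genes, and P4 cells cluster around medians of 84.4 and 82.4.

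Across cells, Spearman's rho between the nuclear and the mitochondrial share was -0.56 in adult cluster 0 (130 cells), -0.48 in cluster 1 (183 cells), -0.45 in cluster 3, -0.24 in cluster 4 and -0.53 in cluster 5, and -0.16 and -0.36 in P4 clusters 0 and 1. Both shares are parts of the same total, and cells of a cluster share 1 library. Depth went with both: rho of UMI with the nuclear share was -0.53 and with the mitochondrial share 0.51 in adult cluster 0, and -0.09 and -0.23 in P4 cluster 0. In the clusters of the merged data, 85 adult cells with a median of 1177 UMI stood together in cluster 4, at 507 UMI per 10000 of nuclear members and 152 of mitochondrial genes, against 340 and 555 in the 98 adult cells of merged cluster 2, with a median of 5101 UMI. The part of depth in these levels was not tested.

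Between the ages, over the 26897 genes that both tables list, nuclear members stood at 307 UMI per 10000 at P4 and 374 in the adult (ratio 0.821, 0.811 to 0.831), and mitochondrial genes at 100.01 and 484 (ratio 0.207, 0.203 to 0.210). Of 81 measured nuclear members 4 were higher at P4, against 23% of 7283 genes, and 15 were lower, against 19.6%. At 2-fold, none was higher and 3 were lower, against 10.4% and 11.5%. Their median log2 fold was -0.20, beside 0.09 over all measured genes. Age, library, depth, estrous stage and gene annotation cannot be told apart here, and 220 of the 406 adult cells are multiciliated-like. Over all genes of each table, ribosomal protein genes took 2440 UMI per 10000 at P4 and 1598 in the adult, and dissociation stress genes 84.5 and 107, and their part was not tested.

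Complex I stood at 88.3 against 121 UMI per 10000, a ratio of 0.729 (0.713 to 0.744). Of its 36 subunits 10 were lower and 1 higher, against 19.6% and 23% of all measured genes. Complexes IV and III stood at 0.783 and 0.828, complex V at 0.940 (0.917 to 0.963), and complex II, at 4.87 against 4.81, was level (ratio 1.01, 0.915 to 1.12). Uqcrb, a small subunit of complex III, was lowest at 2.37 against 5.17 (ratio 0.458, 0.406 to 0.517). Ndufa1 stood at 1.85 against 3.96, Ndufs5 at 2.04 against 4.29, Ndufaf3 at 0.647 against 1.39, Ndufa11 at 3.64 against 6.88, Ndufc2 at 3.18 against 5.89, Ndufa7 at 5.74 against 10.1 and Atp5g2 at 4.02 against 6.93. The 4 higher genes were Cox7a2l (9.44 against 5.91, ratio 1.60, 1.47 to 1.74), Atp5a1, the alpha subunit of ATP synthase (4.85 against 3.11), Ndufa10 (1.54 against 0.981) and Cox6b2 (0.549 against 0.305). With adult secretory-like cells set against P4 cells without multiciliated markers, none of the nuclear members was at least 1.5-fold higher and the log2 fold of Cox7a2l went from 0.67 to 0.26. Ndufaf3 and Ndufa11 were both higher in adult multiciliated-like cells. Over all genes of each table, Ndufa11 stood at 3.07 in those P4 cells and 3.57 in adult secretory-like cells, and Ndufaf3 at 0.336 and 0.470. The part of the mix of cells in the differences between the ages was not tested.

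The mitochondrial genes differed far more, and not alike: 11 of 13 were lower at P4, 1 was higher, and the log2 folds ran from -5.14 to 1.86. mt-Co3 stood at 2.26 against 83.3 UMI per 10000, mt-Co2 at 1.34 against 27.2, mt-Atp6 at 8.88 against 122 and mt-Co1 at 33.8 against 114. mt-Cytb stood at 19.5 against 49.0, mt-Nd1 at 17.7 against 46.5, mt-Nd4 at 7.01 against 27.5, mt-Nd2 at 3.29 against 7.18 and mt-Nd5 at 1.38 against 2.53. mt-Nd3 (0.0489 against 1.39) and mt-Nd4l (0.179 against 1.45) were low at both ages. mt-Atp8 was higher at P4, at 4.47 against 1.16, and mt-Nd6, the gene of the other strand, stood at 0.217 against 0.116 on 40 and 16 UMI. Neighbouring genes differed between the libraries by unlike factors. mt-Co3 and mt-Atp6 stood 35.3-fold and 13.6-fold lower, while mt-Atp8, which shares 43 bases with mt-Atp6, stood 3.64-fold higher.

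The P4 table also lists nuclear copies of mitochondrial genes that the adult table does not. To show how alike they are, each member's transcript end (last 500 bases, GENCODE M21, GRCm38) was divided into words of 90 bases and the words were looked for in other genes. For mt-Co1, mt-Co2, mt-Co3, mt-Atp6, mt-Nd3 and mt-Nd4l, 94.9% to 99.8% of the words are found in a pseudogene that is listed at P4 and not in the adult table. For the other 7 genes the share is 0, except 9.73% for mt-Nd2. mt-Co3 (chrM:8607-9390) matches the pseudogene Gm28437 (chr1:24613189-24613971, minus strand) in 783 of 783 aligned bases, so within them the letters do not tell the genes apart. mt-Nd2 and its copy match in 493 of 510. The last 120 bases of that match are the same letters in both genes, and the stretch of mt-Nd2 and its copy Gm13339 (chr2:22590024-22590533, minus strand) differs at 3 places, in capitals.
mt-Co3 and Gm28437: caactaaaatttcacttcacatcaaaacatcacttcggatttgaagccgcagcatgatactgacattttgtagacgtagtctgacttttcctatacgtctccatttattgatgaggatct
mt-Nd2: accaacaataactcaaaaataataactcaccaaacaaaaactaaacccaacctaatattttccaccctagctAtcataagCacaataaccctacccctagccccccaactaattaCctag
Gm13339: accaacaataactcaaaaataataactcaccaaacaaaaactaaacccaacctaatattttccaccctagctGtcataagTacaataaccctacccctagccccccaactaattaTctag
The 6 genes with such a copy summed to 46.5 UMI per 10000 at P4 and 350.0 in the adult, 7.53-fold lower (7.35 to 7.70), with log2 folds of -1.76 to -5.14. The 7 genes with few or no shared words summed to 53.5 and 134, 2.50-fold lower (2.44 to 2.57), with log2 folds of -1.95 to 1.86. All 6 genes of the first set were lower, and of the second 5 were lower and mt-Atp8 higher. How the counting treated reads that fit both places is not given in the sources used here, and the part of these copies in the difference between the ages was not tested.

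**Figure D5:**
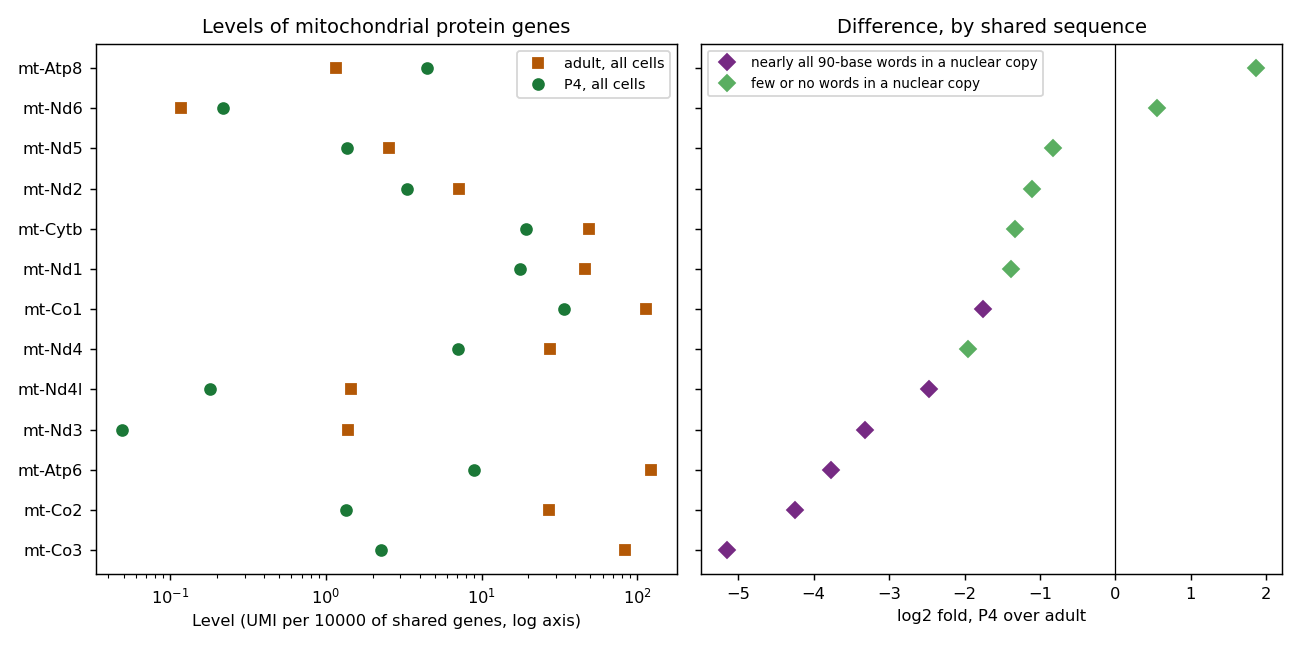
Left: levels of the 13 mitochondrial protein genes in all adult and all P4 cells (UMI per 10000 of shared genes, log axis). Right: log2 fold of P4 over adult; violet marks the 6 genes with over 90% of their 90-base words in a nuclear copy of the P4 table, which include the 5 with the lowest folds (mt-Co3 at -5.14), and green those with under 10%.

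Nuclear members have fewer such copies. For 13 of them some words are found in a gene of the P4 table and in none, or in fewer genes, of the adult table, from 1.44% for Ndufaf7 to 68.9% for Atp5l. Their median log2 fold was -0.40, with 4 of 13 lower and none higher, and the ratio of their sums was 0.761 (0.738 to 0.784). The other 78 genes, 68 of them measured, had a median of -0.20, with 11 lower and 4 higher, and a ratio of 0.833 (0.822 to 0.844). Uqcrb (21.7% of words), Ndufs5 (20.5%) and Atp5g2 (43.5%) are among the genes with copies, and Ndufa1, Ndufaf3, Ndufa11, Ndufc2 and Ndufa7 have none. The 7 pseudogenes that the symbol rule takes at P4 summed to 1.36 UMI per 10000, Uqcrh-ps1 being the most counted at 0.40, and mt-Rnr2 and mt-Rnr1, the mitochondrial ribosomal RNAs, stood at 1.38 and 0.174.

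Among the pathway lists, to be read beside the 23% of all measured genes that were higher at P4 and the 19.6% that were lower, P4 cells were lower in 5 of 18 measured citric acid cycle genes (among them Idh3a, Suclg1, Pdha1 and Mpc1) and higher in Dlst and Suclg2. Of 25 measured assembly factors outside the rule, Cox17, Sco2, Coa6 and Nubpl were lower and none was higher. Of the import list, Timm10, Timm23, Timm44 and Phb2 were higher at P4 and Tomm7 and Chchd10 lower, of 21 measured. Of the regulators Nrf1 was higher at P4 among 6 measured. Idh3a, Suclg1, Mpc1, Sco2, Coa6, Nubpl, Tomm7 and Chchd10, lower at P4, were higher in adult multiciliated-like than in secretory-like cells. Suclg2 and Phb2, higher at P4, were lower in adult multiciliated-like cells. Pdha1 was lower in both comparisons. The part of the mix of cells in these lists was not tested.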

How the data were processed

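The authors deposited raw counts (UMI per gene and cell) for an adult, a P4 and a merged table, without normalization, and 3 tables of cluster numbers. Among tools and builds, Cell Ranger (no version listed), Seurat 2.3.4 and mm10 appear in the submitters' processing notes, without a step for each. Totals differed between cells and all values were whole. The 807 adult columns hold 406 distinct barcodes, of which 1 column each was kept, from the first prefix where both occur. Counts of 641 compared cells of the merged table equalled those of the single tables.

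A level is the count summed over the cells of a cluster, divided by the cluster's total and multiplied by 10000, with an exact Poisson interval. Ratios have an exact conditional interval and folds a pseudocount of 0.1. Measured genes had a UMI in 10% or more of the cells of 1 side. Between ages, totals are over shared genes. No test was run, since each age has 1 library, and no doublet caller was used, which leaves pairs of cells in. Multiciliated-like means clusters 1 and 3 and secretory-like clusters 0 and 4, from fixed marker lists. The text names, per comparison, the 8 measured nuclear members that stood furthest up and furthest down (1.5-fold or more, 20 UMI or more on the higher side), the most counted genes of each complex, the tissue isoforms and the mitochondrial protein genes; Sco2, Chchd10 and other genes come from the pathway lists, of which 1 gene is not reported here. The members and lists were chosen with earlier results of these data known. On simulated counts the fold procedure was checked first. Python 3.11.15, numpy 2.4.6, pandas 2.3.3, scipy 1.17.1 and matplotlib 3.10.9 were used. Alternatives changed the adult column, the total, the pooling, the pseudocount, the filter, the fold, the cells kept and the depth. Positions and transcripts are from GENCODE M21 (GRCm38), promoters from RefSeq (GRCm38.p6), chromosome 18 left out. No protein sequence was used.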

Additional observations from a re-analysis of the deposited data

Results flagged for a closer look

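Nuclear copies of mitochondrial genes, which no comparison above uses, had counts in the P4 library above the level of 0.0141 UMI per 10000 that 0 counts allow. Gm29216 and Gm13340, copies of mt-Co1, stood at 1.29 and 1.14 UMI per 10000. Gm28437, the copy of mt-Co3, stood at 0.862, Gm10925, that of mt-Atp6, at 0.542, and Gm28438, that of mt-Nd3, at 0.283. Gm13341 and Gm28661, copies of mt-Co2, stood at 0.268 and 0.165. Gm10222 and Gm13339, copies of mt-Nd4l and mt-Nd2, were at 0. The P4 library had 183 UMI of Gm28437 beside 416 of mt-Co3, and 60 of Gm28438 beside 9 of mt-Nd3. The 9 copies lie on chromosomes 1 and 2. There are no control samples, and the adult table does not list these genes.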

How the results depend on the processing

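No paired analysis was possible because each age has 1 library and no result comes from a test; for the same reason no library could be left out. Sums are log2 ratios, and counts are of nuclear members at least 1.5-fold higher or lower unless named. The cause of a shift was not tested except where a setting itself sets a fold, filter or gene list. The share of all measured genes called moves with the setting too, so a count alone is no result about the members. In cluster 5 over 0 the share lower ran from 7.75% (pseudocount 0.5) to 28.2% (without cells with smooth muscle markers). Of 419 values of single genes under other settings, 380 stayed within the interval first reported, 38 left it, and 1 turned. For a gene, turned means a change of sign where the fold first reported was at least 1.5. The 380 include settings that change only the filter, the fold limit or the gene list, where a gene's log2 fold cannot move. The value that turned was Cox7a2l in the P4 cells with multiciliated markers, from -1.04 to 0.042 with cells thinned to 1000 UMI. In the same comparison Ndufab1 went from 0.34 to -0.735 and Ndufs7 from -0.07 to 1.62. Their first folds were under 1.5, so these changes of sign are among the 38.

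With mitochondrial and ribosomal protein genes out of the total, multiciliated-like over secretory-like cells gave -0.27 (nuclear) and -0.26 (mitochondrial), with 4 higher and 15 lower. Cluster 4 over 0 gave 0.16 and -0.32, with 8 and 7, and cluster 5 over 0 had 5 lower. The P4 cells with multiciliated markers gave 0.069 and -0.30, with 10 higher. P4 over adult gave -0.13 and -2.12, with 8 lower and 2 mitochondrial genes higher. With mitochondrial genes alone out of the total, P4 over adult gave -0.34 and -2.33, with 2 higher.

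With the mean over cells, multiciliated-like over secretory-like gave 0.077 (mitochondrial). Cluster 3 over 1 gave -0.78 (mitochondrial), with 4 higher. Cluster 4 over 0 gave 0.20 and -0.39, with 5 lower, and cluster 5 over 0 gave -0.15 (nuclear), with 12 lower. P4 cluster 1 over 0 had 1 higher. P4 over adult gave -0.46 and -1.87, with 26 lower, against 19.7% of all measured genes, and 2 mitochondrial genes higher.

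With cells thinned to 1000 UMI, multiciliated-like over secretory-like gave -0.091 and 0.17, with 13 lower. Cluster 3 over 1 gave -0.85 (mitochondrial). Cluster 4 over 0 gave -0.40 (mitochondrial), with 22 higher and 10 lower, against 46.3% and 19.7% of all measured genes. Cluster 5 over 0 gave -0.10 and 0.31, with 15 lower, against 26.0%. P4 cluster 1 over 0 turned in both sums, to -0.0039 and -0.0090, with 3 higher and 4 lower. The P4 cells with multiciliated markers gave 0.37 (nuclear), with 23 lower, and P4 over adult -0.34 and -2.04.

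Without the 5% of cells with the most UMI, multiciliated-like over secretory-like gave -0.039 (mitochondrial). Cluster 5 over 0 gave -0.12 and 0.26, with 3 higher and 9 lower, and P4 cluster 1 over 0 had 1 lower. Of the P4 cells with multiciliated markers 2 were left, and their mitochondrial sum turned from -0.16 to 0.35. They gave 0.041 (nuclear), with 17 lower, against 39.8% of all measured genes. P4 over adult gave -0.31 and -2.23. Without the 5% of cells with the highest mitochondrial share, the mitochondrial sums were 0.017 (multiciliated-like over secretory-like), -0.62 (cluster 3 over 1) and 0.017 (P4 cluster 1 over 0), and cluster 5 over 0 had 9 higher.

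With a fold of 2, higher and lower counts were 4 and 1 (multiciliated-like over secretory-like), 1 and 3 (cluster 3 over 1), 2 and 0 (cluster 5 over 0), 7 and 2 (P4 cells with multiciliated markers) and 0 and 3 (P4 over adult), with 3 higher in cluster 4 over 0 and 1 lower in P4 cluster 1 over 0. A pseudocount of 0.5 gave 1 higher in cluster 3 over 1, 1 lower in cluster 5 over 0 and in P4 cluster 1 over 0, 13 and 3 in the P4 cells with multiciliated markers, and 1 higher in P4 over adult. A filter of 25% of cells gave 1 higher in cluster 3 over 1, 2 higher in cluster 5 over 0 and 1 lower in P4 cluster 1 over 0, and no filter gave 8 lower in cluster 4 over 0.

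Cluster 1 over cluster 0 alone gave 0.07 and 0.067. Without cells with smooth muscle markers cluster 5 over 0 gave -0.11, with 17 lower, against 28.2% of all measured genes. P4 over adult then had 2 mitochondrial genes higher. Without cells with multiciliated markers P4 cluster 1 over 0 had 1 lower, and without proliferating cells it gave 0.016 (nuclear), with 1 higher. Without members that have a copy in the P4 table, P4 over adult gave -1.33 (mitochondrial), with 4 mitochondrial genes lower. Adult secretory-like against P4 cells without multiciliated markers gave -0.31 and -2.24, with 0 higher.

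Depth limits the precision of single genes: cells of adult cluster 4 had a median of 1185 UMI, and the 6 P4 cells with multiciliated markers held 4.57% of the P4 UMI.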
